A study of Drosophila melanogaster with 4 samples.

Results

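The imaginal disc growth factors of Drosophila melanogaster are a family of 6 genes, Idgf1 to Idgf6. Each gene was found by matching the RefSeq transcript accessions of the deposited gene table to NCBI Release 6 symbols, and all 6 had a row of their own among 16198 loci. Polyadenylated RNA came from whole third-instar larvae at 100 h after egg laying, reared at 25 °C. The compared groups were 2 libraries labelled wild type and 2 labelled kr-h1 mutant, which the protocol gives as homozygous for the allele kr-h1[7]. No transgene or treatment is given for either group, and the wild-type strain is not named. For all libraries the labels give an agar-based food for the adult flies with 10% sugar, 2.5% yeast and 0.8% cornmeal. The authors combined the libraries of a group into 1 value per gene in FPKM, a count of fragments scaled for transcript length and for the depth of the library. No value below therefore carries a replicate error, and the depth of the libraries is unknown.

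Imaginal disc growth factors are secreted glycoproteins with the fold of family 18 chitinases. They lack the catalytic glutamate of the active enzymes and are called chitinase-like proteins. They were first known as factors that, together with insulin, support the growth of imaginal disc cell lines. The fat body and haemocytes are known sources in the larva, and the family is also known for roles in the cuticle and at wounds. Kr-h1 encodes a transcription factor with zinc fingers that juvenile hormone induces.

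The mutated gene was checked first. Kr-h1 stood at 2.98 FPKM under the wildtype label and at 9.79 FPKM under the mutant label, a 3.28-fold higher value (authors' deposited table, Cuffdiff q-value 0.000889). A mutant allele can still be transcribed, so this level does not settle the labels. Every direction below rests on them, and the groups are named by label throughout.

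The comparison asks which transcript levels differed between the labelled groups. The wild-type strain is not named, so an effect of the allele cannot be told apart from one of strain. Of the 6 family members, 5 were tested by the authors, and 3 of these (Idgf3, Idgf4 and Idgf6) were called lower under the mutant label. None was called higher or had the higher value among those tested, Idgf2 and Idgf5 were tested and not called, and Idgf1 was not tested. A call here means a q-value of at most 0.05 in the authors' deposited Cuffdiff table, adjusted over 7058 tested loci. Of all tested loci, 13.0% were called, 8.73% lower and 4.32% higher. With a q-value of at most 0.01, a rule that called 5.67% of tested loci lower, Idgf4 and Idgf6 were called, and with a log2 ratio of at least 1 in size required as well as a q-value of at most 0.05 (1.05% of tested loci lower), no member was. The called decreases were small, between 1.23-fold and 1.39-fold. Summed over the 6 genes, the family stood at 661 FPKM under the wildtype label and 535 FPKM under the mutant label, a 1.24-fold lower level that was not tested as a sum. This was 0.117% of the FPKM total of 566151 in the first group and 0.0985% of 543224 in the second.

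The genes lie on 3 chromosome arms in the Release 6 annotation, and their positions bear on how fragments could be assigned. Idgf1, Idgf2 and Idgf3 form a tandem run on the forward strand of arm 2L. Idgf1 spans 16445278 to 16446793, Idgf2 16447330 to 16450508 and Idgf3 16450907 to 16455194. Only 536 bases separate Idgf1 from Idgf2, and 398 bases separate Idgf2 from Idgf3. Idgf1 lies inside an intron of CG5888, which runs on the opposite strand, and the table gives Idgf1, Idgf2 and CG5888 the coordinates of 1 shared bundle. The remaining row of that bundle has no symbol and is listed at 0 in both groups. Idgf4 lies on the reverse strand of X at 9927973 to 9930948, in a row whose coordinates are shared with 1 other row. Idgf6 and Idgf5 lie on arm 2R, at 16691022 to 16693751 and 18393666 to 18395282, about 1700 kb apart. Idgf6 sits inside an intron of Pgant9, a glycosyltransferase gene on the opposite strand, with no shared exonic base. Exonic lengths (the union of all Ensembl exons) were 1445 nucleotides for Idgf1, 1495 for Idgf5, 1796 for Idgf2, 1811 for Idgf6, 1834 for Idgf4 and 3954 for Idgf3. The table's row for Idgf3 lists 2 of the 4 RefSeq transcripts now annotated, and that for Idgf4 lists 2 of 3. The family members are paralogs, so fragments from similar stretches could have been divided between them.

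Idgf6 was the most abundant member in both groups. Idgf6 encodes a protein first described from a Drosophila cell line that resembles haemocytes. It stood at 301 FPKM under the wildtype label and at 245 FPKM under the mutant label, and ranked 304th and 335th among all loci. The lower value belonged to the mutant-labelled group, 1.23-fold below the other (log2 ratio -0.30 with a pseudocount of 1; authors' deposited table, Cuffdiff q-value 0.000889). This is the smallest q-value in the authors' deposited table, and 397 loci share it. Pgant9, in whose intron Idgf6 lies, stood at 12.2 and 11.9 FPKM and was not called (authors' deposited table, Cuffdiff q-value 0.955).

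Idgf4 was second in abundance, with 235 FPKM under the wildtype label and 190 FPKM under the mutant label. It fell 1.24-fold (log2 ratio -0.31), again with the smallest q-value of the authors' deposited Cuffdiff table, 0.000889. The row that shares its coordinates holds a non-coding transcript without a symbol and is listed at 0 in both groups. Idgf4 and Idgf6 had nearly equal ratios, although they lie on different chromosomes. Together they made up 81.1% of the family's FPKM under the wildtype label and 81.2% under the mutant label.

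Idgf3, a gene known for roles in wound healing and in defence against nematodes, had the largest decrease among the tested members. It stood at 52.1 FPKM under the wildtype label and at 37.5 FPKM under the mutant label. It fell 1.39-fold (log2 ratio -0.46), with p = 0.00245 and a q-value of 0.0250 in the authors' deposited Cuffdiff table. Its row shares no coordinates with another. Of all tested loci, 14.7% had a log2 ratio as low or lower. The same share was 25.0% for Idgf4, 25.8% for Idgf6, 21.8% for Idgf5 and 36.4% for Idgf2.

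Idgf2, whose protein supported disc cell growth in culture, had 47.8 FPKM under the wildtype label and 42.0 FPKM under the mutant label. The values were 1.14-fold apart (log2 ratio -0.18), the smallest difference among the tested members, and it was not called (authors' deposited table, Cuffdiff q-value 0.478). Idgf2 and Idgf3 are direct neighbours of similar abundance, and their order differed between the groups. Idgf3 was 1.09-fold above Idgf2 under the wildtype label, and Idgf2 was 1.12-fold above Idgf3 under the mutant label. Without values per library this change of order could not be tested.

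Idgf5 had 23.1 FPKM under the wildtype label and 17.9 FPKM under the mutant label. Its values were 1.29-fold apart (log2 ratio -0.35), more than those of Idgf4 and Idgf6, yet Idgf5 was not called (authors' deposited table, Cuffdiff q-value 0.331). The table therefore shows neither that Idgf5 was lower nor that it was unaffected.

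Idgf1, the other founding factor shown to act on disc cells, was the least abundant member. It had 2.05 FPKM under the wildtype label and 3.45 FPKM under the mutant label. Idgf1 was the only member with the higher value under the mutant label, 1.68-fold, and the authors did not test it. CG5888, which shares its bundle, had 2.88 and 0.505 FPKM and was not tested either.

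**Figure D1:**
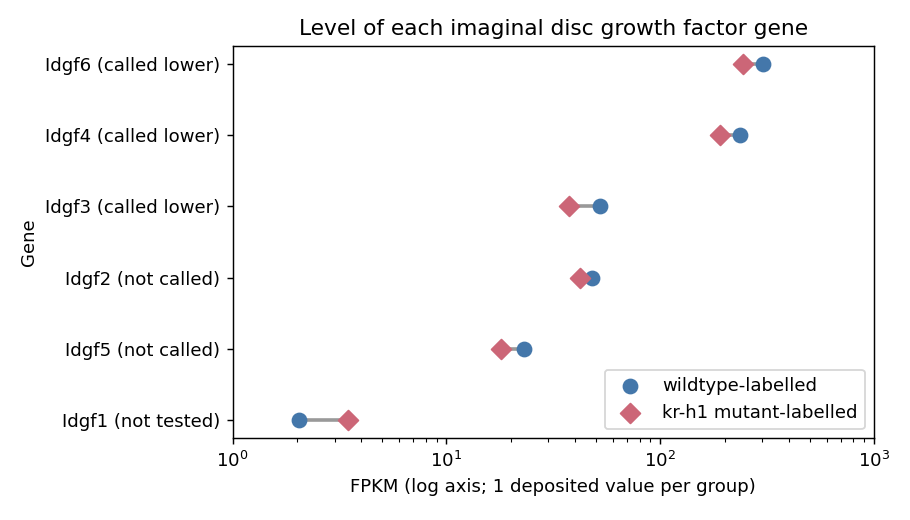
Level of each of the 6 genes in FPKM on a log axis, with a circle for the wildtype-labelled and a diamond for the mutant-labelled group, 1 deposited value each and no error. The diamond lies left of the circle for 5 genes, by at most 1.39-fold, and right of it for Idgf1.

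The order of levels under the wildtype label was Idgf6, Idgf4, Idgf3, Idgf2, Idgf5 and Idgf1, from 301 down to 2.05 FPKM, a 147-fold range. In the mutant-labelled group Idgf2 stood before Idgf3, the other places were as before, and the range was 70.9-fold. Idgf6 exceeded Idgf4 by 1.28-fold and 1.29-fold in the 2 groups. No spread is given for any value, so whether neighbours in this order differ could not be tested.

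The make-up of the family was close in both groups. Idgf6 held 45.5% of the summed FPKM under the wildtype label and 45.7% under the mutant label, and Idgf4 held 35.6% and 35.4%. Idgf3 went from 7.88% to 7.01% and Idgf2 from 7.22% to 7.84%. Idgf5 held 3.49% and 3.35%, and Idgf1 0.309% and 0.644%.

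**Figure D2:**
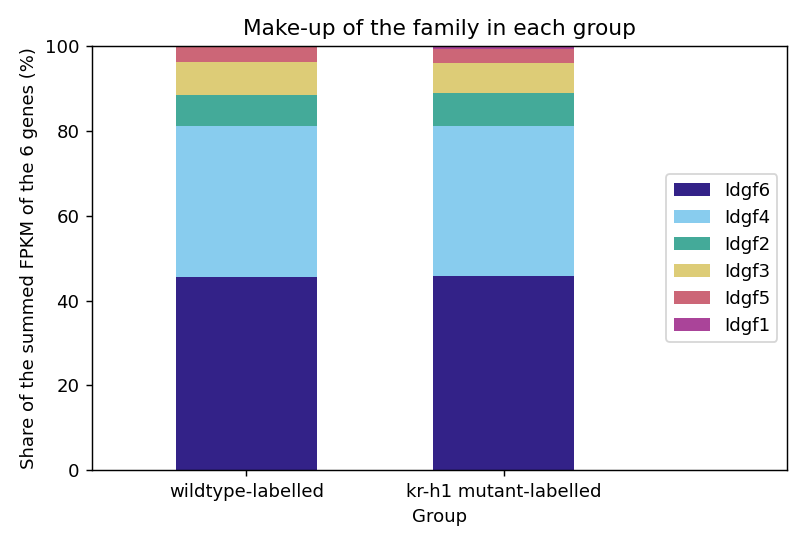
Share of each gene in the summed FPKM of the 6 genes, as stacked bars from 0 to 100% for the wildtype-labelled and the mutant-labelled group. Idgf6 and Idgf4 fill about the same part of both bars, 81.1% and 81.2%.

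The members' calls were set against those of other loci of similar abundance. Of 668 tested loci with a mean of at least 100 FPKM, 34.9% were called lower, and of 3104 loci from 10 to under 100 FPKM, 9.86% were. Idgf4 and Idgf6 belong to the first class and were both called. Idgf2, Idgf3 and Idgf5 belong to the second class, where 1 of 3 was called. Loci with a log2 ratio within 0.05 of the member's own give a closer view. Among such loci in the abundant class, 88.1% of 67 around Idgf4 and 86.8% of 68 around Idgf6 were called lower. In the middle class the shares were 33.1% of 175 loci around Idgf3, 20.0% of 235 around Idgf5 and 1.86% of 322 around Idgf2. A difference of the size seen for Idgf5 was thus mostly left uncalled at its abundance.

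**Figure D3:**
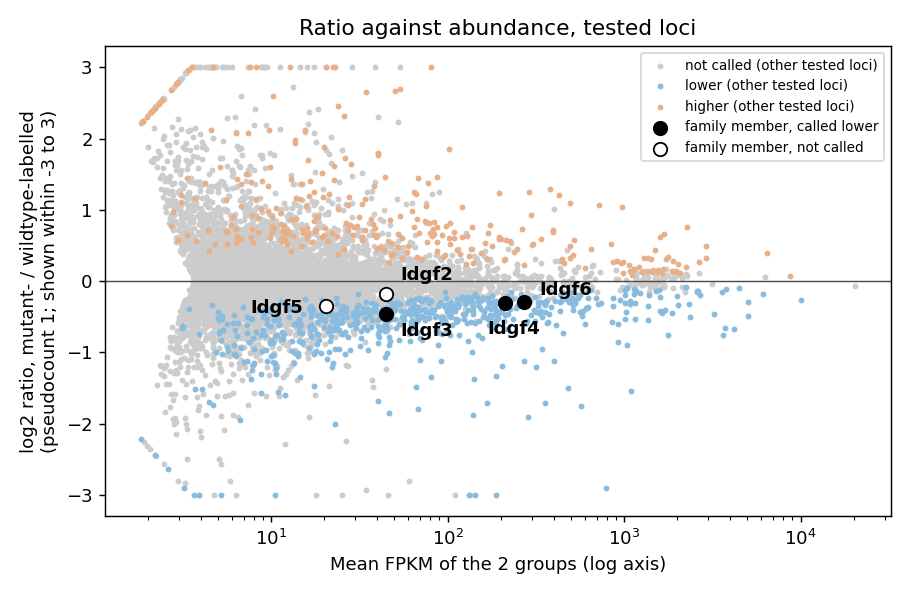
Log2 ratio of mutant-labelled over wildtype-labelled FPKM (pseudocount 1) against the mean FPKM on a log axis for all 7058 tested loci, coloured by call, with ratios beyond 3 in size drawn at 3. The 5 tested family members lie between -0.46 and -0.18, and the called ones, as filled circles, are Idgf3, Idgf4 and Idgf6.

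All 5 tested members had the lower value under the mutant label, with a median log2 ratio of -0.31. The median over all tested loci was -0.03, and 53.5% of them had the lower value under the mutant label. The libraries came from whole animals, so fewer cells of a type and less RNA per cell cannot be told apart. Markers of tissues, the known sources of these proteins in the larva among them, gave the following values. Of 8 fat body markers, 6 were called lower and 1 higher. Their summed level was 23509 FPKM under the wildtype label and 18233 FPKM under the mutant label, 1.29-fold lower. Most of this sum came from the Lsp1 genes, Lsp2 and Fbp2. The marker not called, apolpp, had 297 and 286 FPKM. The marker called higher was the yolk protein gene Yp1 (1.80 and 10.8 FPKM; authors' deposited table, Cuffdiff q-value 0.0457). Of 8 haemocyte markers, 6 were tested and 3 called lower, with summed levels of 102 and 72.6 FPKM, 1.41-fold lower. The tested markers not called were Hml (16.6 and 15.1 FPKM), srp (11.3 and 11.1 FPKM) and NimC1 (12.1 and 6.48 FPKM). He was listed at 0 in both groups. Imaginal disc markers were scarce, with 2 of 10 tested and summed levels of 29.1 and 22.9 FPKM. Of the tested pair sd, a transcription factor of wing growth, fell from 17.0 to 11.0 FPKM, and ap had 3.53 and 4.07 FPKM and was not called. Without sd the sums were 12.0 and 11.9 FPKM. Among the untested markers vg was listed at 0 under the mutant label and hh at 0 under the wildtype label. Of 6 tracheal and epidermal markers 2 were called lower, and the sums were 536 and 466 FPKM. These were serp and verm, also counted in the chitin matrix list. Without them the sums were 151 and 155 FPKM. Of 8 muscle markers 7 were called lower, and the sums were 12902 and 10304 FPKM. Beside these marker counts, 8.73% of all tested loci were called lower, and 34.9% of those with a mean of at least 100 FPKM. No haemocyte or imaginal disc marker reached that mean. For loci from 10 to under 100 FPKM the share called lower was 9.86%, and for those under 10 FPKM it was 77 of 3286. The part of these tissues in the family's lower level was not tested.

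Of the catalytically active relatives, the chitinases, 5 of 6 tested genes had the lower value under the mutant label. Of 11 listed symbols Cht3 is a synonym of Cht10, which left 10 rows, of which 6 were tested, 3 called lower and none higher. Over all tested loci, 8.73% were called lower. Among loci with a mean of at least 100 FPKM, a class that includes Cht9, the share was 34.9%. From 10 to under 100 FPKM, the class of Cht7, it was 9.86%. Under 10 FPKM, the class of Cht6, it was 77 of 3286. Cht9 fell 1.43-fold, from 123 to 86.0 FPKM (authors' deposited table, Cuffdiff q-value 0.000889). Cht7, which encodes a membrane-bound chitinase, fell 1.38-fold from 22.6 to 16.4 FPKM (authors' deposited table, Cuffdiff q-value 0.00991). Cht6 fell 1.34-fold, from 7.90 to 5.92 FPKM, with a q-value of 0.0414 in the authors' deposited Cuffdiff table. The moulting chitinase genes were not called, with Cht10 at 22.0 and 19.3 FPKM and Cht5 at 0.512 and 4.16 FPKM. Cht2 had 19.3 and 17.4 FPKM and was not called, and Cht4, Cht8, Cht11 and Cht12 were not tested. The median log2 ratio of the tested chitinases was -0.27. The sum over the 10 chitinase rows was 201 FPKM under the wildtype label and 152 FPKM under the mutant label. The chitinase-like family was thus 3.29-fold and 3.51-fold as abundant as its active relatives in these whole larvae.

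Of 11 tested rows of genes that build and order the chitin matrix, 2 were called lower and none higher, with a median log2 ratio of -0.22. These were serp (156 to 121 FPKM) and verm (228 to 190 FPKM), paired genes for chitin-binding deacetylase proteins of the cuticle and trachea, both with a q-value of 0.000889 in the authors' deposited Cuffdiff table. The chitin synthase gene kkv had 20.2 and 16.6 FPKM and was not called (authors' deposited table, Cuffdiff q-value 0.0749). Over all tested loci, 8.73% were called lower. Among loci with a mean of at least 100 FPKM, the class of serp and verm, the share was 34.9%. The list rows obst-A and Gasp belong to the same class and were not called. With so few rows in that class, these calls do not set the list apart from other abundant loci.

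Genes of the haemolymph clot, where wound proteins act, had 6 of 12 tested rows called lower and none higher, with a median log2 ratio of -0.20. Of all tested loci, 8.73% were called lower. Among loci with a mean of at least 100 FPKM, a class that includes fon and the Lsp1 genes, the share was 34.9%. The clot protein gene fon (fondue) fell from 463 to 406 FPKM, and Tig, the gene of the matrix protein tiggrin, from 46.7 to 40.2 FPKM. The larval serum protein genes Lsp1alpha (2581 to 2067 FPKM), Lsp1beta (5571 to 4548 FPKM) and Lsp1gamma (6553 to 5760 FPKM) were called lower, as was the prophenoloxidase gene PPO1 (78.8 to 65.0 FPKM). The Lsp1 genes were also counted among the fat body markers.

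Insulin is the partner of imaginal disc growth factors in cell culture. The list of 8 insulin peptides with the receptor gene InR and the insulin-binding protein genes ImpL2 and Sdr had 5 tested rows of 11, 4 of them peptides, and gave no call. The 2 with the highest mean of both groups were ImpL2, a secreted insulin-binding protein gene (20.3 and 18.5 FPKM), and Ilp6 (8.58 and 12.9 FPKM). The remaining tested rows were Ilp2 (10.8 and 2.15 FPKM), Ilp3 (5.35 and 0.442 FPKM) and Ilp5 (8.53 and 6.65 FPKM), so that 4 of 5 had the lower value under the mutant label, with a median log2 ratio of -0.32. The wide differences of Ilp2 and Ilp3 were thus left uncalled. The adenosine deaminase-related growth factors, another family of growth factors secreted by insect cells, also gave no call in 2 tested rows of 5. Their most abundant rows were that of Adgf-A with Adgf-A2 (14.5 and 14.9 FPKM) and that of Adgf-D (4.59 and 3.61 FPKM). In both lists no row had an unadjusted p under 0.05 in the authors' deposited Cuffdiff table. Calls in either direction made up 13.0% of all tested loci. In the class with a mean under 10 FPKM, which holds Ilp2, Ilp3, Ilp5 and Adgf-D, 77 of 3286 tested loci were called lower. With so few tested rows, the absence of calls is near these shares and sets neither list apart.

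**Figure D4:**
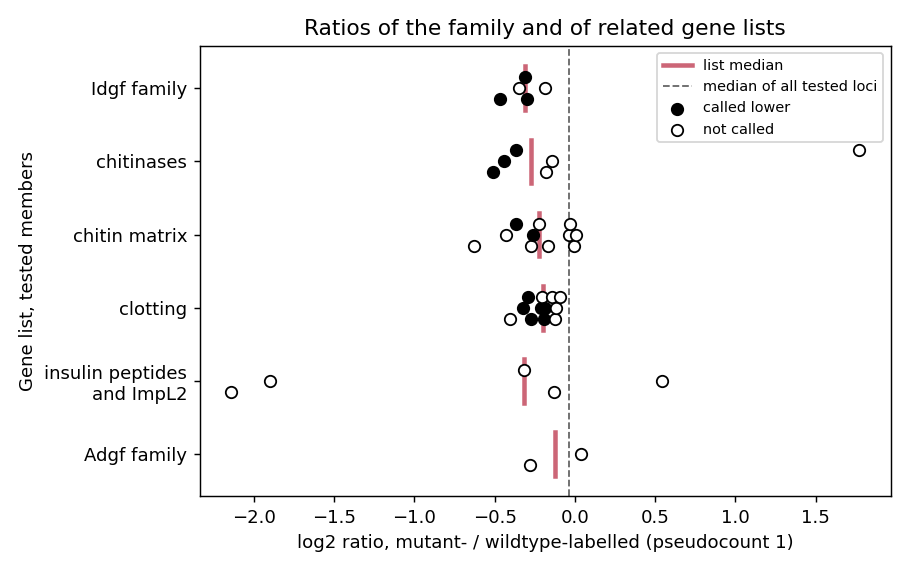
Log2 ratios of mutant-labelled over wildtype-labelled FPKM (pseudocount 1) for the tested members of the family and of 5 related gene lists, filled where called lower, with a bar at each list's median and a dashed line at the median of all tested loci, -0.03. The family median is -0.31 and the chitinase median -0.27, with Cht5 far to the right of the other chitinases.

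Loci next to the family gave few values to compare. The 3 nearest rows on each side of each region, with CG5888 and Pgant9 from the members' own bundles and leaving out rows without a symbol, came to 26, of which 7 were tested, 1 called higher and none called lower. Their median log2 ratio was -0.09. Over all tested loci, 8.73% were called lower and 4.32% higher. With 7 tested rows, the counts are too few to set against those shares. The called locus was CG9691 near Idgf4, at 37.8 FPKM under the wildtype label and 91.1 FPKM under the mutant label. Beside the run on 2L, CaBP1 had 115.2 and 100.5 FPKM and CG4455 had 9.02 and 4.81 FPKM, neither called. Of the 3 rows on that side, jhamt lies nearest to the run. This gene of the methyltransferase that completes juvenile hormone synthesis was listed at 0 in both groups. On the other side dac, a transcription factor gene of eye and leg discs, had 1.38 and 1.83 FPKM and was not tested. Beside Idgf5 the glutathione S-transferase genes GstE1 (19.95 and 25.4 FPKM) and GstE10 (16.3 and 11.5 FPKM) were not called, and beside Idgf6 Picot had 48.0 and 45.0 FPKM, also not called.

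For each member, the nearest of 6608 other tested loci with a single symbol was found by the distance over both log2 levels. With only 2 group values, this likeness describes level and ratio alone. The nearest loci were Hsc70-3, the chaperone gene of the endoplasmic reticulum (232 and 194 FPKM), for Idgf4, and hui (303 and 246 FPKM) for Idgf6. They were CG3961 (51.0 and 36.8 FPKM) for Idgf3, AdipoR, an adiponectin receptor homologue gene (46.6 and 41.7 FPKM), for Idgf2, Asph (23.1 and 17.6 FPKM) for Idgf5 and ssp3 (2.17 and 3.64 FPKM) for Idgf1. Hsc70-3, hui and CG3961 were called lower in the authors' deposited Cuffdiff table, and the other 3 were not called. These are the same calls as for the members they lie nearest to where the member was tested. The loci were picked for like level and ratio, on which calls depend, so like calls are largely built in.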

How the data were processed

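Paired-end MiSeq libraries were processed by the authors with TopHat2, Cufflinks and Cuffdiff, per the submitters' processing notes. Which versions, settings, strand handling, build and annotation were used is not given in the sources used here. In the deposited table there is 1 FPKM value per group, made by the authors with Cuffdiff. Its log2 fold change (mutant over wildtype, no pseudocount), p-value and q-value are the authors' own, and its test statistic, a score, was deposited too and not used. The labels do not say whether libraries came from separate collections, so p-values measure at most the spread between them, which may be technical.

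Accessions were matched to NCBI Release 6 symbols (30273 of 30529). The table's bounds for Idgf3, Idgf4 and Idgf5 equalled those of Ensembl release 115, from which strands, exons and gene positions were taken. Ratios used a pseudocount of 1, which understates changes of low genes. Of 16198 loci, 9135 have the status of untested and 5 that of too many fragments. The adjustment was recomputed from the p-values and tested on simulated data. The family, the 5 gene lists, the markers and the rule for named genes (all members, every called list member or else the 2 most abundant, the 3 nearest rows on each side, the nearest locus in level) were chosen with earlier results of these data known. For 2 lists the most abundant tested rows were named. List members and markers that were not called, and the 2 markers listed at 0 in 1 group, were added after their values were seen. The marker sums without sd, serp and verm were also added then. Alternatives covered thresholds, pseudocounts, scaling and shared rows. Python 3.11.15, numpy 2.4.6, pandas 2.3.3 and matplotlib 3.10.9 were used.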

Additional observations from a re-analysis of the deposited data

How the results depend on the processing

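The direction of all 6 member ratios and of Kr-h1 was kept with a pseudocount of 0.1, with none, after centring on the median of all tested loci and with equal FPKM totals. The log2 ratio of Idgf6 ranged from -0.30 to -0.24, that of Idgf4 from -0.31 to -0.25, that of Idgf3 from -0.47 to -0.41 and that of Idgf1 from 0.55 to 0.75. With a q-value of at most 0.01, Idgf4 and Idgf6 remained called and Idgf3 did not. Adjustment over loci with a mean of at least 1 FPKM removed no locus. When the log2 ratio also had to reach 1 in size, 0 family members were called lower, as were 0 chitinase, 0 chitin matrix and 0 clotting rows, by the authors' Cuffdiff q-value. With rows that share a locus left out, 1 family member (Idgf3) and 1 chitinase row (Cht7) stayed called lower. The tested chitinase rows Cht5 and Cht10 also share no locus and were not called. No share over all tested loci is given under this rule, so these counts have no background beside them. Only the rows of Idgf3 and Idgf5 share no locus among the tested members. No paired analysis was possible because the table holds 1 value per group, and for the same reason no library could be left out. The depth of the libraries is unknown.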
